A study of Saccharomyces cerevisiae with 144 samples.

Results

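Genes close to the ends of the chromosomes of *Saccharomyces cerevisiae* were compared with the rest of the genome by newly synthesized RNA after rapid loss of the BET proteins Bdf1 and Bdf2. A nuclear gene was taken as near an end when its counted region lay wholly within 20 kb of either end of its chromosome, with the right end set at the largest end coordinate among the counted regions of that chromosome. Of 6419 nuclear gene regions, 245 met this rule. Of these, 66 had at least 30 T>C reads (reads with T>C conversions, which mark RNA made during the labeling) summed over the 6 DMSO libraries of WT and are the genes described here, 176 were below that minimum and 3 were left out by the rule. The 66 genes lay on 28 of the 32 chromosome arms, and 15 of them lay wholly within 10 kb of an end. In all, 5314 nuclear genes passed the minimum, of which 5247 were the other genes used for comparison. These included 10 that reach into the last 20 kb without lying wholly within it.

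Ends of yeast chromosomes are packed into silent chromatin by the Sir proteins, which bind hypoacetylated histone H4 and are anchored through Rap1 and the Ku complex. Bdf1 binds the acetylated tail of histone H4 through its bromodomains and is known to limit the spread of Sir proteins from telomeres. The subtelomeric regions hold repeated Y′ elements, dispersed gene families such as *COS* and *AAD*, and many genes that serve particular nutrients or stresses. The comparison therefore asked whether transcription of these genes fell more than that of other genes when Bdf1 and Bdf2 were lost.

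All strains expressed the auxin receptor OsTIR1 from the *GPD1* promoter (pGPD1-OsTIR1:HIS3) and carried BDF1 and BDF2 fused to 3xV5-mAID, a tag that lets the auxin 3-indoleacetic acid (IAA) trigger degradation of the protein. The Bdf1/2-AID strain (RDY73) had no other copy, WT (RDY234) expressed additional unmodified BDF1 from the *TRP1* locus, and 21 further strains expressed a BDF1 variant there, so that even WT and every DMSO control carried the tagged proteins. Cultures in YPD received 1 mM IAA or DMSO for 25 min and then 5 mM 4-thiouracil for 4 min, and 3′ end RNA libraries were made from 3 cultures per strain and treatment, 6 for WT. The variants followed here are ΔET (extra-terminal domain deleted), mET(4) (4 acidic residues of that domain mutated), ΔBD1/2 (both bromodomains deleted) and mBD1/2 (both mutated).

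A group of 6 oxidoreductase genes recurs in the results below. They were picked after their values were seen, from 11 dehydrogenase and reductase genes near ends that did not all move alike. By the tests against WT in IAA described below, 5 of the 11 were higher in ΔET and 1 was lower. These counts were 5 and 1 in mET(4) and 7 and 1 in ΔBD1/2. The lowest log2 differences among the 11 were -3.22, -5.60 and -3.31 in these strains. For 4 of the 6 picked genes (*YLR460C*, *YCR102C*, *AAD6* and *AAD4*, but not *YML131W* or *ADH6*) the 500 bases before the start codon hold the letters TTACTAA. These letters are the known binding element of Yap1, the transcription factor of the oxidative stress response. The sites of this element before *YCR102C*, *YLR460C* and *AAD6*, and before *ERO1*, are shown because these genes stand high in the comparisons that follow. Sites before *AAD4*, *RDS1*, *SRY1*, *AIF1* and *CSS3* are not shown. Among these genes, *AAD4* was higher than WT in the strain with both bromodomains deleted. By contrast, *RDS1* was lower than WT in ΔET, and *CSS3* fell in the total reads compared below. The sites shown were therefore picked by outcome and do not tie the element to a rise. Each sequence is R64 (RefSeq) on the strand of the gene, 5′ to 3′, with the element in capitals on either strand, so that it reads TTACTAA or TTAGTAA.

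YCR102C, chrIII:305642-305668, 184 bases before the start codon: atagacaataTTACTAAgtgttcctca
YLR460C, chrXII:1061038-1061064, 160 bases before: atagacgataTTACTAAgtgttcctca
AAD6, chrVI:15657-15683, 235 bases before: cacatttcgcTTACTAAttttgctctc
AAD6, chrVI:15638-15664, 216 bases before: ttgctctcaaTTAGTAAgcaaatccgt
ERO1, chrXIII:13347-13373, 182 bases before: gctttgggcgTTAGTAAgaacaaaaag

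The stretches before *YCR102C* and *YLR460C*, on different chromosomes, are nearly the same, and both genes belong to one family. Within 500 bases before the start codon the element was found in 9 of the 66 genes (13.6%), against 12% of the 5247 other genes and 11.8% of all 6419 nuclear genes. It was therefore about as common near the ends as elsewhere, and a match in letters is not a measurement of binding. The letters TATAAA, on either strand of the same window, were found in 65.2%, 59.9% and 61.4% of these sets.

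Libraries held between 4089393 and 21384793 reads, of which 34354 to 998627 were T>C reads. In Bdf1/2-AID, the genes near ends together had 790 to 1603 T>C reads per library in DMSO and 464 to 869 in IAA, and they were weakly transcribed, so that the median standard error of a log2 change was 0.69 against 0.46 for the other genes. Levels below are T>C counts scaled to 1000000 reads of the library (CPM). The *BDF1* message had 12.9 ± 3.75 CPM in DMSO and 11.8 ± 0.71 in IAA (SD, n = 3), which does not test the depletion, as the degron acts on the protein.

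Loss of Bdf1/2 lowered about as many genes near ends as it left below the threshold when T>C reads were scaled to all reads of the library, and their median fell by less than that of other genes. By the quasi-likelihood test of edgeR, with an adjusted p under 0.05, 32 of the 66 genes fell (48.5%) and 0 rose, whereas 81.9% of all genes tested fell and 0.301% rose. At an unadjusted p under 0.05, 37 of the 66 fell and 0 rose, and 4428 of all 5314 genes passed in either direction. The fitted change was negative for 62 of the 66. Their median change was -1.6 on the log2 scale (quartiles -2.21 and -0.68) and that of the other genes was -1.88 (quartiles -2.52 and -1.17), and 23 of the 66 lay below the median of the other genes. With 2 genes that had no read in IAA placed at a bound of 3 reads over the group, the median was -1.59. The 46 genes with no 50-base stretch found elsewhere in the genome had a median of -1.75, closer to that of the other genes, and 60.9% fell. The 20 genes that share such a stretch had a median of -0.69, and 20% fell. The difference between these 2 sets was not tested. The counts were read within classes of depth, as genes near ends had fewer reads. Among genes with 30 to 59 T>C reads in WT DMSO, 26.9% of the 26 genes near ends fell against 55.8% of others. With 60 to 119 reads these shares were 48.0% of 25 genes and 81.2%, and with 120 or more they were 86.7% of 15 genes and 88.3%. The medians of the genes near ends stayed above those of the other genes in each of these 3 classes, at -1.78, -1.59 and -1.39 against -2.01, -2.14 and -1.78. The classes rest on reads in WT DMSO, so that they did not fully match the precision in Bdf1/2-AID. Median standard errors there were 1.03, 0.69 and 0.30 near the ends against 0.90, 0.63 and 0.35.

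**Figure D1:**
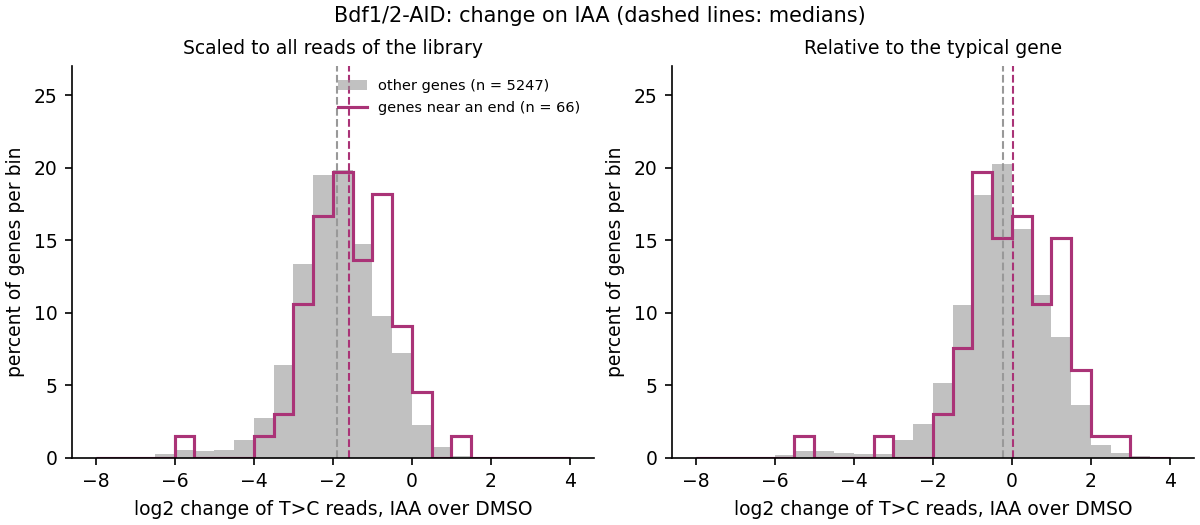
Percent of genes (y axis) by log2 change of T>C reads, IAA over DMSO, in Bdf1/2-AID (x axis), for the 66 genes near chromosome ends (outline) and the 5247 other genes (grey), scaled to all reads (left) or relative to the typical gene (right), with dashed lines at the medians. The median of the genes near ends lies to the right of that of the other genes in both panels, by 0.28 and 0.26.

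The largest falls among genes with at least 100 T>C reads in Bdf1/2-AID were those of *MIX23*, *VAC17*, *RPN12* and *COX14*, which serve mitochondria, the vacuole and the proteasome. *MIX23*, which encodes a mitochondrial intermembrane space protein and lies 9710 bases from the left end of chromosome II, had 2.96, 3.45 and 3.69 CPM in DMSO and 0.634, 0.444 and 0.886 in IAA. All 3 IAA libraries were below all DMSO libraries, and the gene fell by 2.35 on the log2 scale (SE 0.41, edgeR adjusted p = 4.4e-08). *COX14*, an assembly factor of cytochrome c oxidase, had 10.3, 10.4 and 8.22 CPM in DMSO and 3.49, 2.93 and 3.10 in IAA. It fell by 1.64 (SE 0.23, adjusted p = 2.4e-11), with no overlap between treatments. *RPN12*, a subunit of the proteasome regulatory particle, had 6.30, 4.07 and 4.87 CPM in DMSO and 2.22, 1.86 and 0.886 in IAA, a fall of 1.64. *VAC17*, which links vacuoles to myosin for inheritance by the bud, had 2.77, 4.42 and 3.02 CPM in DMSO and 1.11, 1.15 and 0.665 in IAA, a fall of 1.81. In both genes the treatments did not overlap either. *VAC17* and *RPN12* did not pass the test when size factors of total reads replaced library totals.

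Of the 10 genes for chromatin, proteasome, secretion, mitochondria and signalling, 9 fell, a share near the 81.9% of all genes tested. They included *RPD3*, the histone deacetylase (a fall of 2.77), *RSC9*, a subunit of the RSC chromatin remodeler (a fall of 2.58), and *PKC1*, the kinase of the cell wall integrity pathway (a fall of 2.18). Of 12 transporter genes 7 fell, of 11 dehydrogenase and reductase genes 5 fell, and of 7 enzymes of amino acid, sugar and vitamin metabolism 2 fell. None of the 3 *COS* genes passed the test, with changes between -0.90 and -0.75, and 1 of the 4 Y′ and Ty-related genes fell, all smaller shares than that of all genes tested. Among the remaining 19 genes 8 fell, including *MNT2*, a mannosyltransferase (a fall of 3.22), and *HYR1*, a thiol peroxidase that senses hydroperoxide (a fall of 2.89). These groups of genes were drawn up after the values had been seen.

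The genes nearest to an end were close to the detection limit. *YEL077C*, a Y′ helicase-like gene whose region starts 13 bases from the left end of chromosome V, had 0.860, 0.177 and 0 CPM in DMSO and 0.158, 0.177 and 0.111 in IAA, so that the treatments overlapped. *YBL113C*, a gene of the same kind that starts 29 bases from the left end of chromosome II, had 0.382, 0.708 and 0.671 CPM in DMSO and 0.158, 0.0887 and 0.111 in IAA. It fell by 2.22 (SE 0.95, adjusted p = 0.0247) from 16 T>C reads to 3, and it lost this call with size factors of total reads (a fall of 1.22), without DMSO replicate B (a fall of 2.0) and without IAA replicate B (2.03) or C (2.21). Y′ elements are repeated on many ends, and 84.8% and 77.6% of the 50-base stretches of these regions also occur elsewhere in the genome, so that counts of either gene cannot be assigned to one locus with certainty. *AAD3*, a putative aryl-alcohol dehydrogenase gene 957 bases from the right end of chromosome III, had 0.191, 0.265 and 0.503 CPM in DMSO and 0.317, 0 and 0 in IAA, with overlap and a change of -1.76 (SE 1.21, adjusted p = 0.164). Without IAA replicate A, the only IAA library with a read, 8 reads in DMSO stood against 0, a count fixed by removing that library. The gene passed the test in that setting at an adjusted p of 0.0287 by edgeR, which therefore carries no weight. Against a floor of 3 reads over the group it was then 1.95-fold lower, a value that leaves out the counting error of the 8 DMSO reads.

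The scaling sets the level of all these changes. The median over all genes was -1.88 with library totals, -0.82 with size factors of total reads (a shift of 1.06) and -0.23 with TMM factors of the T>C reads, which measure each gene relative to the typical gene. The typical gene here is the reference level set by TMM, so that the median gene stood at -0.23 and not at 0 on this scale. With size factors of total reads 7 of the 66 genes fell and 7 rose, against 34.0% and 8.20% of all genes tested. Under this scaling *AAD6*, *YLR460C*, *YCR102C*, *YML131W*, *ADH6*, *DLD3*, *CHA1* and *ERO1* changed from a negative to a positive sign.

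Relative to the typical gene, 12 of the 66 genes rose and 1 fell upon loss of Bdf1/2 (edgeR, adjusted p under 0.05), against 16.3% and 8.32% of all genes tested. The shares among the genes near ends were 18.2% and 1.52%. Since these genes had fewer reads, the risers were also counted by depth. With 30 to 59 T>C reads in WT DMSO 7.69% of the genes near ends rose against 6.20% of the others, with 60 to 119 reads 12% against 5.81%, and with 120 or more 46.7% against 22.5%. The last share rests on 7 of 15 genes, and none of these differences was tested. Precision was again not fully matched, with median standard errors of 1.13, 0.72 and 0.32 near the ends against 0.98, 0.67 and 0.36. The median was 0.02 for the genes near ends and -0.23 for the others. The group with the most risers was that of dehydrogenases and reductases, in which 6 of 11 rose and the median was 1.05. Among transporters 1 of 12 rose and the median was -0.34. These counts stand beside the 16.3% of all genes, and the groups were formed with the values known.

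*YLR460C* and *YCR102C* encode members of the quinone oxidoreductase family of unknown function. *YLR460C* had 8.69, 8.14 and 10.1 CPM in DMSO and 6.49, 7.01 and 8.97 in IAA in Bdf1/2-AID. The treatments overlapped on this scale, while the level relative to the typical gene rose by 1.43 (SE 0.20, adjusted p = 6.2e-11). *YCR102C* had 1.05, 1.95 and 2.52 CPM in DMSO and 2.06, 1.60 and 1.66 in IAA, overlapping as well, and its relative rise was 1.64 (SE 0.38).

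*YML131W* encodes a dehydrogenase of the medium chain reductase family and *ADH6* an NADPH-dependent alcohol dehydrogenase. *YML131W* had 14.3, 17.4 and 15.6 CPM in DMSO and 11.2, 11 and 11.1 in IAA, and *ADH6* had 15.6, 14.8 and 15.8 in DMSO and 9.35, 8.69 and 12.6 in IAA. Every IAA library of both genes was below every DMSO library, and both fell on library totals, by 0.51 and 0.58, less than the typical gene and with the sign turned under size factors. Relative to it they rose by 1.15 (SE 0.17, adjusted p = 7.7e-10) and 1.07 (SE 0.18, adjusted p = 2.4e-08). *AAD6*, a putative aryl-alcohol dehydrogenase gene of the *AAD* family, had 4.2, 3.27 and 2.18 CPM in DMSO and 2.53, 4.35 and 2.44 in IAA. These levels overlapped, and relative to the typical gene it rose by 1.62 (SE 0.29, adjusted p = 2.6e-07). The other *AAD* genes that were measured, *AAD3*, *AAD4* and *AAD14*, did not pass the test in this comparison, with relative changes of -0.25, 1.00 and -0.50.

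Among other enzymes, *DLD3*, which encodes a cytosolic 2-hydroxyglutarate transhydrogenase and lactate dehydrogenase, had 8.12, 7.61 and 6.37 CPM in DMSO and 5.70, 5.59 and 3.32 in IAA. *CHA1*, the serine and threonine deaminase induced by these amino acids, had 16.9, 14.2 and 14.3 CPM in DMSO and 9.98, 10.2 and 9.30 in IAA. *ERO1*, the oxidase that drives disulfide bond formation in the endoplasmic reticulum, had 4.97, 4.78 and 5.70 CPM in DMSO and 2.85, 3.55 and 3.10 in IAA. In each of the 3 genes all IAA libraries were below all DMSO libraries, by 0.62, 0.63 and 0.66 on the log2 scale when fitted (higher under size factors), whereas relative to the typical gene they rose by 1.05, 1.04 and 1.00. Without IAA replicate C the fall of *DLD3* was 0.40 (edgeR adjusted p = 0.119).

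The other 4 relative risers were less deeply covered. *HXK1*, a hexokinase gene, rose by 1.42, *MAL31*, the maltose permease gene of the *MAL3* locus, by 2.12, and the Ty-related *YHR214C-B* and *YHR214C-C* by 1.37 and 1.67. *YHR214C-B* and *YHR214C-C* overlap each other and share 98.2% and 97.1% of their 50-base stretches with other places in the genome, so that their reads cannot be told from those of Ty elements elsewhere. In all, 5 of the risers share a 50-base stretch with another place. Besides these Ty-related genes they are *YLR460C*, *YCR102C* and *AAD6*, whose reads from shared stretches cannot be assigned to a single locus. Without IAA replicate B, *YHR214C-B* rose by 0.96 (adjusted p = 0.166) and *HXK1* by 1.23 (adjusted p = 0.0744). *YML131W* overlaps *ERO1*, *HXK1* overlaps *RPN12*, and *AAD6* overlaps *THI5* on the opposite strand. Whether counting used the strand is not given in the sources used here.

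**Figure D2:**
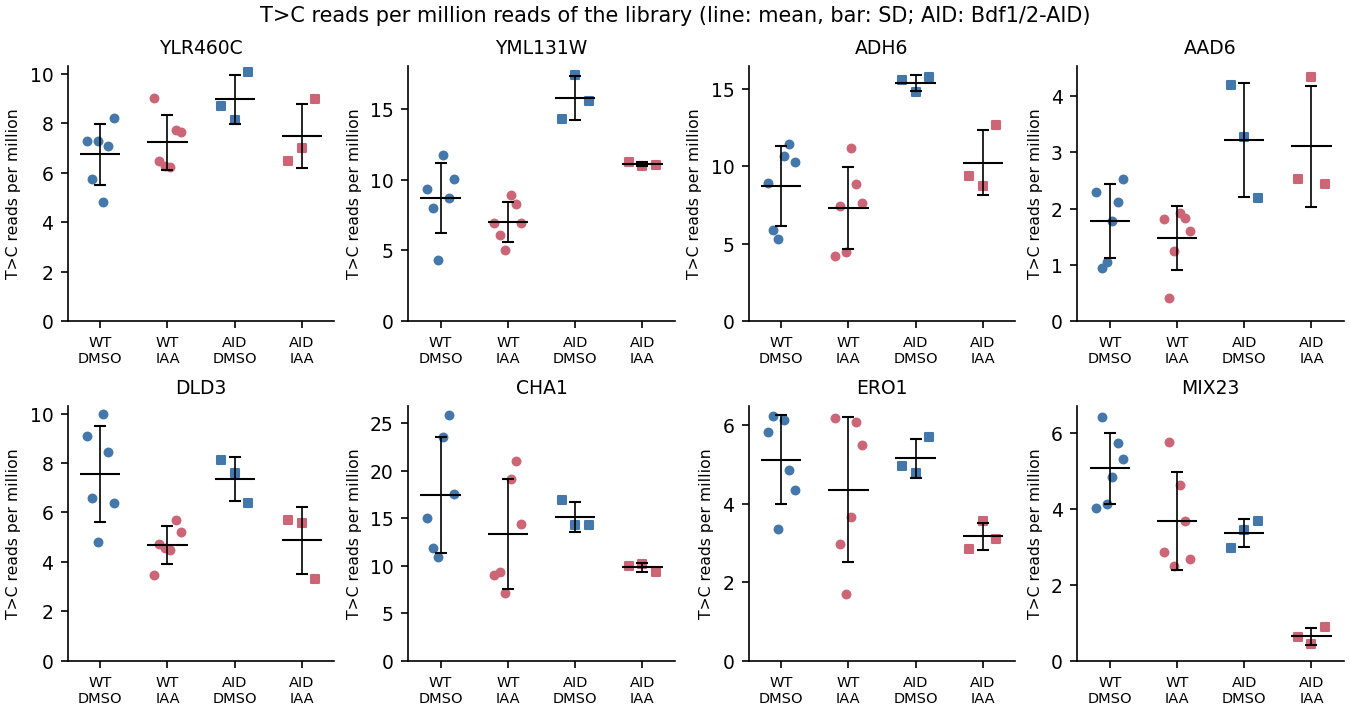
T>C level in CPM (y axis) in single libraries of WT (circles, n = 6) and Bdf1/2-AID (AID, squares, n = 3) in DMSO (blue) and IAA (red), with mean (line) and SD (bars), for 8 genes near ends. *MIX23* falls from 3.37 to 0.65 on average in Bdf1/2-AID, whereas *AAD6* has 3.22 and 3.11.

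The single gene that fell relative to the typical gene was *PDR18*, which encodes an ABC transporter and lies 13915 bases from the right end of chromosome XIV. It had 0.478, 0.796 and 0.671 CPM in DMSO and 0 in all 3 IAA libraries, that is 18 T>C reads against 0. Against a floor of 3 reads over the group, it was 5.76-fold lower on library totals and 1.80-fold lower relative to the typical gene. These values leave out the counting error of the 18 DMSO reads. The adjusted p of 0.0496 was at the threshold and was lost when any 1 of the 6 libraries was left out.

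The changes followed no order by distance from the end. Relative medians were 0.01 for the 8 genes under 5 kb from an end, -0.55 for the 13 at 5 to 10 kb, 0.47 for the 26 at 10 to 15 kb and -0.08 for the 19 at 15 to 20 kb. Those of other genes were -0.18 at 20 to 40 kb, -0.37 at 40 to 100 kb and -0.21 farther in. Of the 12 risers 8 lay at 10 to 15 kb. The 35 genes transcribed towards the end had a relative median of -0.15 with 3 risers, and the 31 transcribed away from it had 0.59 with 9 risers. The 20 genes that share a 50-base stretch with another place in the genome had a relative median of 0.93, and the 46 without such a stretch -0.12. These splits are descriptions over genes, and no difference between them was tested.

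**Figure D3:**
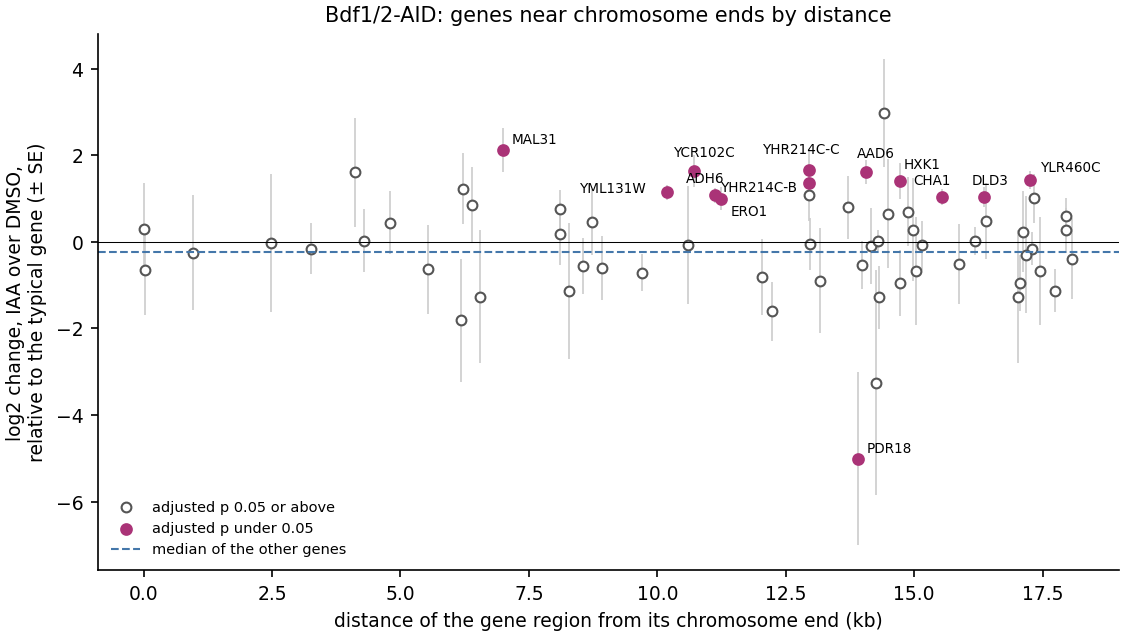
Distance of the gene region from its chromosome end in kb (x axis) against log2 change relative to the typical gene, IAA over DMSO in Bdf1/2-AID, with bars of 1 SE (y axis), for the 66 genes. Filled points passed the test and are named, 12 above 0 and *PDR18* below, and the dashed line is the median of the other genes at -0.23.

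Genes near ends that are barely transcribed were examined together, since a silenced gene has few reads. The 176 genes below the minimum, of which 81 had no T>C read at all in WT DMSO, were pooled in each library, a summary that was added after their values were seen. Scaled to 1000000 T>C reads of the library the pool had 376, 344 and 279.2 reads in DMSO and 156, 190 and 178 in IAA in Bdf1/2-AID. The treatments did not overlap, and the ratio of the means was 0.52. The pool was chosen for low reads in the WT DMSO libraries, so that its WT DMSO value is in part set by the choice. The corresponding pool of 927 other genes below the minimum had 4560 ± 213 in DMSO and 4015 ± 714 in IAA (SD, n = 3), with overlap and a ratio of 0.88.

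Expressed as a percentage of the pool of other low genes, the pool near ends went from 7.29% ± 0.84 to 4.40% ± 0.41 in Bdf1/2-AID and from 8.11% to 8.34% in WT (n = 6), where the treatments overlapped and where both pools had been chosen on the DMSO libraries. All IAA libraries lay below all DMSO libraries in 5 of 23 strains, and in 0 strains did they all lie above. The 5 were Bdf1/2-AID, ΔNPS/CPS (both phosphorylation site regions deleted), ΔET, pNPS/CPS (phosphomimetic) and mET(1) (1 acidic residue mutated), with means in ΔET of 6.35% and 4.30%. In mET(1) the means were closer, at 7.09% and 6.40%. With 3 libraries per treatment, full separation in a strain can arise by chance, and the number of such strains was not tested. The read counts behind these percentages are small. In Bdf1/2-AID 62 genes of the pool had a read in DMSO and 34 in IAA, and the largest single shares were those of *YCR099C* (18 reads to 0), *MHT1* (16 to 2), which encodes a homocysteine methyltransferase, and *AAD10* (15 to 0). No test was made of this pool.

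In WT, where the additional BDF1 copy remains after IAA, the genes near ends did not pass the test in either direction relative to the typical gene (0 of 66), nor did any other gene tested (0%). At an unadjusted p under 0.05 there were 1 lower and 1 higher gene near an end and 125 genes in all. The median change was 0.03 near the ends and 0.01 elsewhere. The 66 genes were selected on reads in WT DMSO, which enter this comparison and the next.

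The change in Bdf1/2-AID minus that in WT was higher for 3 of the 66 genes and lower for 0, against 3.52% and 0.922% of all genes tested. At an unadjusted p under 0.05, 12 of the 66 were higher and 3 lower, and 1114 of all 5314 genes passed in either direction. *DLD3* differed by 1.35 (SE 0.32, edgeR adjusted p = 0.0198), *YHR214C-B* by 1.83 (SE 0.48, adjusted p = 0.0318) and *YML131W* by 1.08 (SE 0.29, adjusted p = 0.0371). In WT, *YML131W* had a lowest, median and highest level of 4.32, 9.04 and 11.8 CPM in DMSO and 5.01, 6.95 and 8.93 in IAA, and *DLD3* had 4.8, 7.53 and 9.98 in DMSO and 3.47, 4.64 and 5.70 in IAA, both with overlap. With the culture letter as a block, 9 genes were higher and 1 lower, against 12% and 4.72% of all genes in the same fit. The letters A to C and D to F of WT are also separate blocks of library numbers. Without any 1 of the 3 DMSO libraries or IAA library B of Bdf1/2-AID, 0 were higher. *YML131W* also missed the threshold without IAA library A or C of Bdf1/2-AID, WT DMSO library A, D or F or WT IAA library B, and *YHR214C-B* without WT DMSO library D, with edgeR adjusted p between 0.0511 and 0.0727.

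Across the 23 strains, the median change on IAA of the genes near ends was compared with that of other genes, each scaled to library totals. The difference was 0.28 in Bdf1/2-AID and lay between -0.12 in mET(4) and 0.15 in ΔCPS (C-terminal phosphorylation sites deleted) in the other 22. It was -0.08 in ΔET, 0.03 in WT, 0.11 in ΔBD1/2 and 0.03 in mBD1/2. With a larger prior count the values of mET(4) and ΔET were close to 0, at -0.01 and -0.03, and that of Bdf1/2-AID was 0.40. These are values with no test, since 1 strain gives 1 difference.

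**Figure D4:**
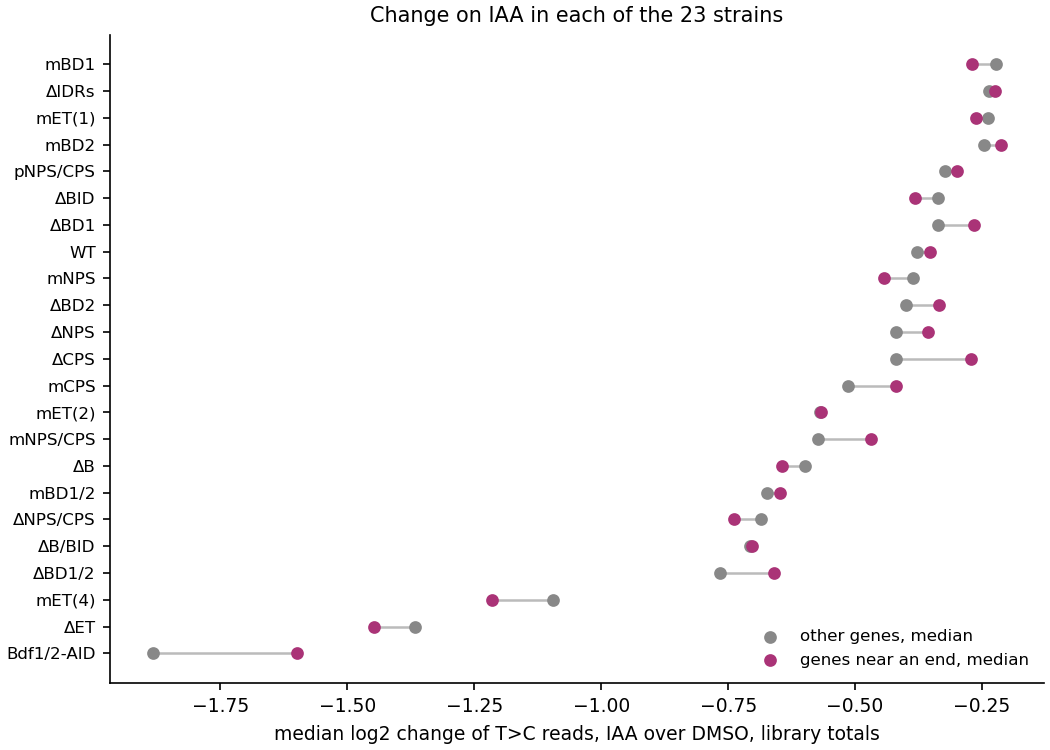
Median log2 change of T>C reads on IAA, scaled to library totals (x axis), of the 66 genes near ends and of the 5247 other genes in each of 23 strains (y axis), joined by a line. The 2 medians lie furthest apart in Bdf1/2-AID (-1.6 and -1.88).

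Compared with WT in IAA and relative to the typical gene, ΔET had 8 of the 66 genes higher and 5 lower, against 13.9% and 9.0% of all genes. The higher genes included *YML131W*, *ADH6*, *YLR460C* and *AAD6*, and the lower ones were *ARR2* and *PDR18*, a gene of arsenate resistance and the ABC transporter above, *AAD14*, *RDS1*, a regulator of drug sensitivity, and *MIX23*. *AAD6* had 2.36, 3.25 and 6.88 CPM in ΔET against a lowest, median and highest of 0.411, 1.71 and 1.91 in WT. The groups did not overlap, and the difference relative to the typical gene was 3.26 (SE 0.37, edgeR adjusted p = 1.0e-05). *HXK1* had 1.73, 3.01 and 4.27 CPM in ΔET and at most 1.66 in WT, a difference of 3.62. *MIX23* had 0.275, 0.325 and 0.454 CPM in ΔET and at least 2.51 in WT, and was 1.66 lower relative to the typical gene (SE 0.43, adjusted p = 0.0101). The strains also differed in DMSO, where ΔET had 4.65 ± 0.89 CPM of *AAD6*, 1.95 ± 1.29 of *HXK1* and 1.81 ± 1.22 of *MIX23* (SD, n = 3) and WT had 1.79 ± 0.66, 0.654 ± 0.768 and 5.07 ± 0.93 (n = 6). These DMSO differences were not tested. Without 1 ΔET library 1 to 3 of the 66 genes were lower, and without replicate C *MIX23* was not among them (1.47 lower, adjusted p = 0.0687).

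In mET(4), 7 of the 66 genes were higher than in WT and 3 lower, against 5.12% and 0.997% of all genes. *YML131W* had 7.26, 9.42 and 10.3 CPM, overlapping WT on this scale, and was 1.63 higher relative to the typical gene (SE 0.25, adjusted p = 0.000496). *ADH6* and *AAD6* were 1.70 and 1.82 higher, and *AAD6* missed the threshold without mET(4) replicate C (1.65, adjusted p = 0.0731). The 3 lower genes were *AAD14*, *YKR104W*, a transporter-like gene that overlaps *NFT1*, and *RDS1*. They had few reads, and without 1 of the mET(4) libraries 0 or 1 of the 66 genes was lower. In mBD1/2, 0 genes were higher and 0 lower, against 0.847% and 0.0376% of all genes. At an unadjusted p under 0.05, 6 of the 66 were higher and 5 lower, and 743 of all 5314 genes passed in either direction. All variants are compared with the same WT libraries. In these comparisons the median relative difference was lower near the ends than elsewhere in each variant. It was -0.47 near the ends and -0.15 elsewhere in ΔET, and -0.58 and -0.12 in mET(4). In ΔBD1/2 the medians were -0.27 and -0.09, and in mBD1/2 they were -0.34 and -0.05. The gaps between these medians were not tested. The 66 genes were chosen on reads in WT DMSO, so that a lower median in a variant may in part be set by that choice. In DMSO, before depletion, the median log2 level of the genes near ends also lay further below that of the others in the variants. This difference averaged -1.10 over the libraries of WT, -1.25 in ΔET, -1.16 in mET(4), -1.40 in ΔBD1/2 and -1.46 in mBD1/2, values that were not tested.

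In ΔBD1/2, 10 of the 66 genes were higher than in WT in IAA and 1 was lower, against 7.30% and 3.65% of all genes. *YCR102C* was 3.87 higher relative to the typical gene (SE 0.26), *AAD6* 3.67 (SE 0.32), *YML131W* 3.47 (SE 0.23), *ADH6* 3.4 (SE 0.26), *YLR460C* 3.15 (SE 0.25), *AAD4* 2.82 (SE 0.42) and *ERO1* 2.13 (SE 0.30), each with an adjusted p of at most 0.000171. These differences were present before depletion. *YCR102C* had 20.3, 23.8 and 33.0 CPM in ΔBD1/2 in DMSO and 20.7, 22.9 and 24.8 in IAA, against a range of 1.57 to 3.06 and 1.47 to 3.35 in WT. Treatments overlapped within each strain and strains did not overlap. When the change on IAA in each variant was compared with that in WT, an alternative added after the data were seen, 0 of the 66 genes passed the test in ΔET, mET(4), ΔBD1/2 or mBD1/2 by edgeR. At an unadjusted p under 0.05 there were 3 lower and 3 higher genes in ΔET, against 7.17% and 5.74% of all genes tested. The counts were 9 and 0 in mET(4) (5.97% and 3.14% of all genes), 3 and 3 in ΔBD1/2 (3.48% and 1.71%) and 0 and 1 in mBD1/2 (1.98% and 1.94%).

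The same 6 genes were high in all 3 strains with a deleted bromodomain (ΔBD1, ΔBD2 and ΔBD1/2). In the 9 DMSO libraries of these strains *YLR460C* had 31.4 to 64.0 CPM, against 2.01 to 12.8 in the 63 DMSO libraries of the other 20 strains. *YCR102C* had 18.6 to 33.0 against 0.226 to 4.30, *YML131W* 46.6 to 71.0 against 4.11 to 25.9, and *ADH6* 36.6 to 59.3 against 3.71 to 24.0. These 4 genes did not overlap between the sets of libraries. *AAD6*, at 3.81 to 11.9 against 0.871 to 5.61, and *AAD4*, at 2.84 to 5.63 against 0 to 3.93, did overlap. The 6 genes, picked after their values were seen, made up 63.0% ± 0.28 of the T>C reads of the 66 genes in ΔBD1/2 in DMSO (SD, n = 3), 19.2% ± 2.18 in WT (n = 6) and 32.9% ± 2.37 in Bdf1/2-AID (n = 3). Without them the genes near ends had 3369 ± 179 reads in every 1000000 T>C reads in ΔBD1/2 and 3231 ± 502 in WT. The strains with a bromodomain deletion carry consecutive library numbers that hold no other strain, so that this block of library numbers and the deletion cannot be told apart. mBD1/2, whose library numbers lie outside it, is among the other 20 strains.

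**Figure D5:**
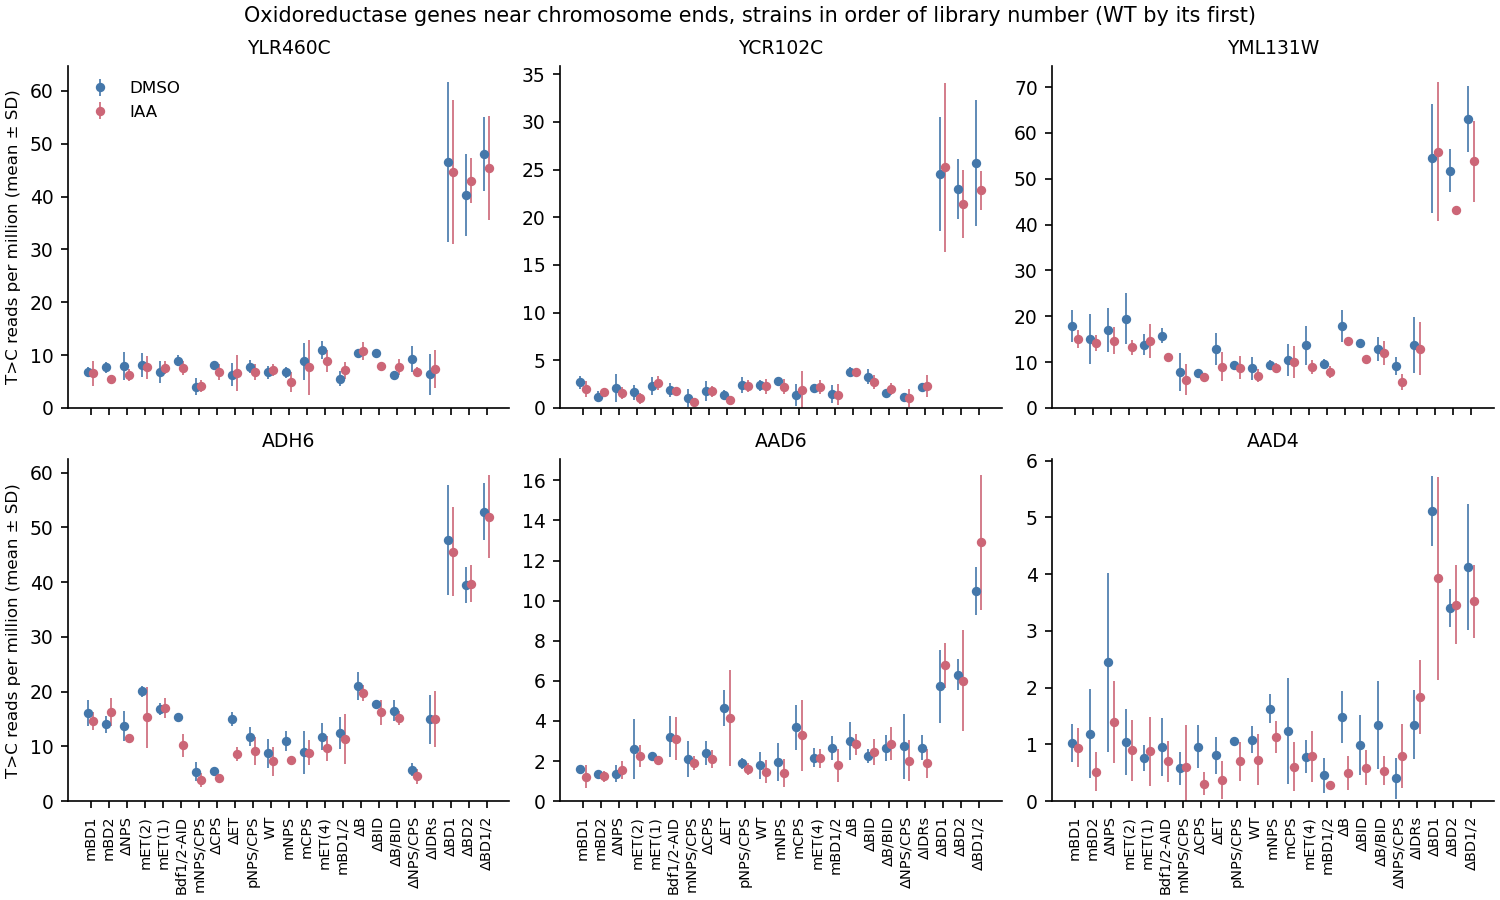
T>C level in CPM (y axis, mean ± SD, n = 3, 6 for WT) of 6 oxidoreductase genes near ends in DMSO and IAA in each of 23 strains, ordered by library number (x axis). The 3 strains at the right, ΔBD1, ΔBD2 and ΔBD1/2, lie above the others for *YLR460C*, *YCR102C*, *YML131W* and *ADH6*, whose lowest DMSO library there has 18.6 CPM or more.

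Total reads, which also hold RNA made before depletion, were also compared in Bdf1/2-AID after TMM scaling. Here 23 of the 66 genes rose and 7 fell, against 31.3% and 33.8% of all genes, with a median of 0.23 near ends and -0.12 elsewhere. The largest rises were those of *MAL31* (1.99), *MAL32*, the maltase gene beside it (1.92), and *THI11*, a gene of thiamine precursor synthesis (1.77). *THI11* is among the 20 genes that share a 50-base stretch with another place, so that its reads cannot be assigned to a single locus with certainty. *HXK1*, *YLR460C*, *AAD6* and *YML131W* rose by 1.34, 1.17, 1.19 and 0.98. The genes that fell were *YOL159C-A*, *CSS3*, *YER186C*, *MNT2*, *RSC9*, *RPD3* and *COX14*. Shares of total reads follow both synthesis and decay, and were taken relative to the typical gene.

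Genes whose products build or oppose silent chromatin were taken from a list of 25, all tested. On library totals 22 of them fell and 0 rose, with a median of -2.34, a share near that of all genes tested (81.9% fell). Relative to the typical gene, where 8.32% of all genes fell, 5 of the 25 did, namely *RAP1* (-1.41), *RIF1* (-1.85), *YKU80* (-2.22), *SAS4* (-1.26) and *HDA1* (-1.62), which encode telomere binding proteins, a subunit of the SAS acetyltransferase and a deacetylase. *BDF1* and *BDF2* themselves rose by 1.52 and 1.42 on the same scale. *SIR1* to *SIR4* had relative changes of -1.08, -0.96, -0.85 and -0.68, none past the threshold. *RPD3* belongs to this list and to the genes near ends.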

How the data were processed

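Newly synthesized RNA of 144 libraries was measured by SLAM-seq with 3′ end libraries. The authors trimmed reads with fastp 0.23.2 (per the submitters' processing notes) and bbduk and aligned them to R64 with SLAM-DUNK, and deposited raw counts per gene region of all reads and of T>C reads, those with at least 2 T>C conversions. No pooling of replicates was stated, and columns were matched to samples by the labels. Mitochondrial genes were left out. Genes with at least 30 T>C reads over the WT DMSO libraries were tested with edgeR 4.0.16 (quasi-likelihood, only the groups compared, R 4.3.3, limma 3.58.1), with offsets from library totals of all reads or, as relative changes, TMM factors of T>C counts, and Benjamini-Hochberg adjustment over all 5314 genes at 0.05. Alternatives were size factors, DESeq2 1.42.0, other filters and end distances, leaving out each library, and the culture letter as a block. Same-letter WT libraries deviated together (r of 0.407 to 0.717 over 6 pairs), but only 3 of 6 correlated best with their own letter. Within the separate blocks of library numbers A to C and D to F, r was 0.086 to 0.129 and -0.031 to 0.070, so that the letters mostly marked these blocks. Those of Bdf1/2-AID (0.006 to 0.077) share only a letter. Methods describe replicates as biological. The fits were checked on simulated counts with few genes changed, equally in both directions and with a single dispersion. This setting is simpler than these data, so that the check does not cover their uneven changes.

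Genes named were up to 10 risers and fallers per direction past the threshold with at least 100 T>C reads in Bdf1/2-AID and no overlap between treatments in the relative comparison, up to 3 in other comparisons, the 5 most transcribed, the 3 nearest an end, and *BDF1*. Others were named after their values were seen. Overlap there refers to relative levels. The genes and lists were chosen with earlier results of these data known. Counting intervals cover counting error only. Gene names and sequences come from RefSeq R64, to which 66 of 66 start coordinates matched.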

Additional observations from a re-analysis of the deposited data

Results flagged for a closer look

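Of 34 groups of WT levels examined, 2 held a library far from the rest, and chance alone marks about 1 group in 20. *AAD3* had 2.09 CPM in WT DMSO replicate D, with the nearest of the other 5 libraries at 0.995. *VAC17* had 6.48 CPM in WT IAA replicate A, with the nearest at 3.42.

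The change on IAA relative to the typical gene differed between Bdf1/2-AID and WT for *DLD3* by 1.35, for *YHR214C-B* by 1.83 and for *YML131W* by 1.08, by the test of the difference itself in edgeR. The reads of *YHR214C-B* cannot be told from those of Ty elements elsewhere, and *YML131W* overlaps *ERO1* on the opposite strand.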

How the results depend on the processing

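Directions and calls that changed were these. On library totals, 32 genes near ends fell. With size factors of total reads 7 fell and 7 rose, against 34.0% and 8.20% of all genes tested. With genes kept only where no library lacked a T>C read 13 fell, a filter that also changes which genes are counted. Under size factors the sign turned for *AAD6* (1.02), *YCR102C* (1.06), *YLR460C* (0.83), *YML131W* (0.57), *ADH6* (0.49), *DLD3* (0.46), *CHA1* (0.45) and *ERO1* (0.41). Relative to the typical gene, the count of fallers, 1, was 0 with a filter of 30 reads in the libraries compared, with DESeq2, with the replicate block, within 10 kb and without any 1 library, and 4 within 30 kb. The 12 risers became 7 with a read in every library, 1 of 15 genes within 10 kb, 23 within 30 kb and 7 of the 46 genes with no 50-base stretch elsewhere. The last share was 15.2%, against 16.3% of all genes tested. Filters and end distances change how many genes are counted, so that these counts do not compare as rates.

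For the difference from WT, 3 higher genes became 8 with WT A to C alone, 8 with D to F alone, 9 with the replicate block and 0 to 3 with a library left out, and 0 lower became 1 in each of the first 3 settings. Against WT in IAA, 5 lower genes in ΔET became 8 with WT A to C and 1 to 3 without 1 ΔET library, and the difference in medians, -0.32, ran from -0.403 to -0.0267 with 1 ΔET library left out, the latter without replicate A. In mET(4), 3 lower genes became 6 and 7 with WT A to C and D to F, 5 with the replicate block and 0 to 1 without 1 mET(4) library, and 7 higher became 4 to 7, the fewest without replicate B. In ΔBD1/2, 1 lower gene became 6 and 3, 3 with the block and 0 to 1 without 1 ΔBD1/2 library (0 without replicate A or B). In mBD1/2, 0 lower genes became 1 and 4, and 0 higher became 2 and 4, and 2 with the block. As a change on IAA minus that in WT, added after the data were seen, all counts in ΔET, mET(4) and ΔBD1/2 were 0 and the difference in medians of mBD1/2, -0.297, became -0.0262. The cause of these moves was not tested. The block changed no other count of calls by over 1.5 times.

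The difference in medians between genes near ends and others was 0.28 in Bdf1/2-AID with edgeR's default prior count and 0.40 with a larger one, and -0.05 to 0.14 in the other strains with the latter (-0.01 in mET(4) and -0.03 in ΔET). Low T>C counts, with a median standard error of 0.69, limit what could be detected for single genes near ends, and 20 of 66 share sequence with other places.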
